A study of Mus musculus with 3 samples.

Results

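The genes of secreted Wnt proteins, of their receptors and of their secreted antagonists were examined for NKX2-5 binding in the mouse embryonic heart. The set held 41 of 22350 protein-coding genes of the GENCODE M1 annotation (mm9 assembly), picked by a rule on gene names: 19 Wnt ligands, 14 receptors (10 Frizzled genes, Lrp5, Lrp6, Ror1 and Ror2) and 8 antagonists (4 Sfrp and 4 Dkk genes). The members were chosen with earlier results of these data known. The study was a chromatin immunoprecipitation experiment followed by sequencing (ChIP-seq) with an antibody to NKX2-5, on hearts of wild-type Parkes mice at stage E11.5. It comprised 2 ChIP libraries, S1 and S4, each with a list of enriched intervals (peaks) and their scores, and 1 Input library, which was not analysed here. There was 1 condition and no perturbation, so the question the data answer is where NKX2-5 lay at these genes and how far the duplicate libraries matched, and no test between groups was possible. Whether the libraries came from separate heart pools is not given in the sources used here.

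Wnt ligands are lipid-modified secreted glycoproteins that bind Frizzled receptors. With the co-receptors LRP5 or LRP6 they stabilise beta-catenin, which then acts with TCF/LEF factors in the nucleus, and with ROR1 or ROR2 they act through beta-catenin-independent routes that control cell polarity and movement. The sFRP proteins bind Wnt ligands and the DKK proteins bind LRP5 and LRP6. In the heart, the beta-catenin branch acts early in mesoderm and in progenitor growth, and Wnt5a and Wnt11 are known for their part in the outflow tract and in cardiac differentiation.

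A peak was assigned to a gene when its midpoint lay in the gene body or within 50 kb of it, and it was called shared when it overlapped a peak of the other library by at least 1 bp. The score was read as the p-value of the peak on a negative log10 scale, multiplied by 10. The background it was set against is not given in the sources used here. It was not scaled between the libraries, and it began at 140 in both lists. S1 held 4418 peaks and S4 held 5441, which made 2546 shared regions, and read depth was unknown. Marker genes were set beside the tissue label. A shared peak lay at 13 of 15 heart muscle genes (not at Nkx2-5 or Tbx5), at 0 of 5 liver genes, 0 of 5 epithelial genes and 1 of 4 neural genes (Pax6). Of all protein-coding genes 15.7% had one in the same kind of window, so 0 or 1 among 4 or 5 genes cannot be told apart from that share. The marker lists were chosen with earlier results of these data known, so the counts are no independent check of the label. The neighbours Nppa and Nppb had the same best-ranked region, as did Myh6 and Myh7, so the 13 are not all separate.

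NKX2-5 peaks found in both libraries lay at 4 of the 41 Wnt genes: the ligand gene Wnt11 and the receptor genes Fzd2, Lrp6 and Ror1. That is 9.76% (2.72 to 23.1; intervals are exact 95% Clopper-Pearson intervals and cover counting alone), while 15.7% of all protein-coding genes had a shared peak in the same window. Long genes have larger windows, and coding genes of like length (the mean share of the length class of each Wnt gene, with 10 classes of equal size) gave 16.6%. The share at Wnt genes was thus lower in number, but its interval held both values, and it was the higher one (7.32% against 6.81%) where the gene's start had to be the nearest coding start of the region. The windows of neighbouring genes overlapped for 4 pairs (Wnt6 with Wnt10a, Wnt10b with Wnt1, Wnt3a with Wnt9a, and Wnt9b with Wnt3), which left 37 separate windows.

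By role, 1 of 19 ligand genes had a shared peak (5.26%, 0.133 to 26.0; genes of like length 16.1%), as did 3 of 14 receptor genes (21.4%, 4.66 to 50.8; like length 18.2%). None of the 8 antagonist genes had one, which allows a share of up to 36.9% (like length 14.9%). The intervals of the roles overlapped, and each held the value for its like-length genes. Among other signalling families, 6 of 29 FGF genes (20.7%, 7.99 to 39.7; like length 17.9%), 9 of 41 BMP and TGF-beta genes (22.0%, 10.6 to 37.6; like length 17.7%) and 1 of 9 Notch genes (11.1%, 0.281 to 48.2; like length 17.4%) had a shared peak. Each interval held 15.7%, the share of all coding genes, and overlapped that of the Wnt genes, and the differences between families were not tested.

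**Figure D1:**
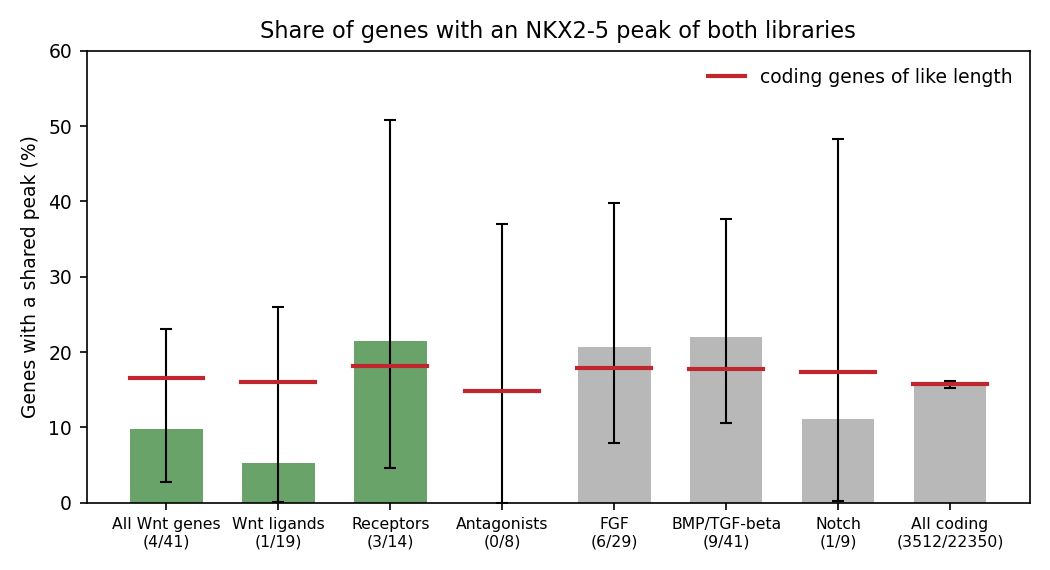
Share of genes (percent, vertical axis) with a shared NKX2-5 peak in the body or within 50 kb, for the Wnt genes, their roles, other signalling families and all protein-coding genes, with counts under each bar, exact 95% intervals as error bars and the share of coding genes of like length as a red line. The bar of all Wnt genes stands at 9.76% under a line at 16.6%, and every interval of the Wnt roles crosses its line.

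Among the ligands, Wnt11 was the gene with a shared peak. Wnt11 (ENSMUSG00000015957.4, chr7:105983622-106003705, plus strand) codes for a ligand of the beta-catenin-independent branch that is needed for normal outflow tract formation. The peak lay 16.8 kb upstream of the gene start in intergenic sequence, at chr7:105966390-105967234 in S1 with a score of 560 and at chr7:105966322-105967206 in S4 with a score of 279. The nearest coding start to it was that of Wnt11. It was the single region of the 8 at Wnt genes where S1 scored higher than S4 (ratio of S4 to S1, 0.498), and it stood in the top 10.3% of the S1 list and the top 34.6% of the S4 list. The stretch around its centre is shown because it is the one shared region at a ligand gene; capitals mark TGACA, the core of the MEIS1 binding motif, here present at bases 70 to 74 and 185 to 189. This and the sequences that follow are the plus strand of mm9 (NCBIM37), reaching 100 bp either way from the middle of the overlap of the S1 and S4 peaks.
Wnt11, chr7:105966698-105966898: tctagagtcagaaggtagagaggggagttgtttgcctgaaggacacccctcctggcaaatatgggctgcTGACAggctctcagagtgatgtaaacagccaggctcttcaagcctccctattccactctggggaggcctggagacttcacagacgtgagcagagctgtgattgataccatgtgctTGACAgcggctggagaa

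The other 18 ligand genes had no shared peak in their windows. A peak of 1 library alone lay at Wnt2, Wnt2b, Wnt5a, Wnt8b and Wnt16 (S4), at Wnt6 and Wnt10a (the same S1 peak, at the start of the neighbouring gene Prkag3) and at Wnt7a (1 of each library, 51.0 kb apart). Wnt5a codes for a ligand that signals through ROR receptors. Its S4 peak scored 221 and lay 0.769 kb downstream of its annotated start, in its first exon. The Wnt8b peak (251) was the highest of these ligand peaks, and it stood 69.3 kb downstream of the Wnt8b start at the start of Hif1an. No peak of either list was in the windows of Wnt1, Wnt3, Wnt3a, Wnt4, Wnt5b, Wnt7b, Wnt8a, Wnt9a, Wnt9b and Wnt10b.

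Among the receptors, Ror1 had the most shared regions. Ror1 (ENSMUSG00000035305.5, chr4:99768396-100117370, plus strand, 349 kb long) codes for a receptor tyrosine kinase-like receptor of Wnt5a. All 4 of its shared regions were intronic, 131 kb, 202 kb, 249 kb and 285 kb downstream of the start. The 202 kb region, in intron 1, was the highest-scoring shared region at any Wnt gene. It spanned chr4:99970152-99971069 with a score of 662 in S1 (top 7.79% of the list) and chr4:99970157-99971251 with a score of 851 in S4 (top 5.29%). The region at 249 kb, in intron 4, scored 228 in S1 and 287 in S4. The remaining regions were weaker in both libraries: 177 and 201 at 285 kb (intron 4), and 146 and 178 at 131 kb (intron 1). The order of the 4 regions by score was the same in S1 and S4. The nearest coding start was that of Ror1 for the region at 131 kb and that of Ube2u for the other 3, 181 kb away for the strongest, so these are placed at Ror1 by lying inside it. The strongest region and the next are shown for comparison.
Ror1 at 202 kb, chr4:99970513-99970713: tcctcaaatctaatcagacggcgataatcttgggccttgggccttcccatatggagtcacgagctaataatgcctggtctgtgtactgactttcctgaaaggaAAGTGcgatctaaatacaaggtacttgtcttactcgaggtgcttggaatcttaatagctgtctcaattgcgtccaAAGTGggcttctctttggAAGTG
Ror1 at 249 kb, chr4:100017402-100017602: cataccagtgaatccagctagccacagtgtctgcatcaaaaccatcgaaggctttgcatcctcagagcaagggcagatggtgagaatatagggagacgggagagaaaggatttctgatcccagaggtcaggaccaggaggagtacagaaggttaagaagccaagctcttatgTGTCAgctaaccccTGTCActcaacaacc
In the first of them capitals mark AAGTG, the core of the NKX2-5 motif, at bases 104 to 108, 179 to 183 and 197 to 201. In the second they mark TGTCA, which is TGACA read on the minus strand, at bases 173 to 177 and 187 to 191. These are counts in the printed windows, which are shorter than the peaks. With 250 bp on each side, TGACA was in 8 of the 8 shared regions at Wnt genes, the strongest one included, and in 84.6% of all shared regions. Windows of the printed size at the weaker Ror1 regions, not printed here, also held AAGTG, 1 at 285 kb and 2 at 131 kb.

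A further 2 S1 peaks in intron 1 of Ror1 had no partner, with scores of 253 and 162. They lay 3.23 kb and 12.5 kb from the nearest S4 peaks, which were those of shared regions of Ror1. A gene as long as Ror1 offers much room for peaks: of the 324 coding genes with 0.8 to 1.25 times its length, 30.9% had a shared region in the body and 3 (0.926%) had at least 4. Over all coding genes 16 had at least 4, and all 16 were in the longest of the length classes.

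Lrp6 (ENSMUSG00000030201.8, chr6:134396494-134516983, minus strand) codes for a co-receptor of the beta-catenin branch. It had 2 shared regions, both inside the gene. The one in intron 7 of its 23-exon transcript lay 61.9 kb downstream of the start and scored 283 in S1 (chr6:134454806-134455433) and 369 in S4 (chr6:134454876-134455281). The one in intron 12 lay 96.0 kb downstream and scored 242 in S1 and 296 in S4. This was 289 bp from the start of a shorter Lrp6 transcript, which places it as the single promoter region among the shared regions of Wnt genes; its sequence is not shown because the window overlaps an exon of that transcript. The first is shown because its window held both cores, with TGACA on the minus strand at bases 72 to 76 and 114 to 118 and AAGTG at bases 158 to 162.
Lrp6 at 61.9 kb, chr6:134454978-134455178: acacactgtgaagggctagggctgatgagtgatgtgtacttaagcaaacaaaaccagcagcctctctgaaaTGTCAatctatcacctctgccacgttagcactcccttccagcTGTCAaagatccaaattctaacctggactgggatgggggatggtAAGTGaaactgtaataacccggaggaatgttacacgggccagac

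Fzd2 (ENSMUSG00000050288.5, chr11:102465745-102469372, plus strand) is a single-exon gene for a Frizzled receptor. Its shared region was intergenic, 39.7 kb downstream of the start, and scored 391 in S1 (chr11:102504970-102505940, top 17.9%) and 544 in S4 (chr11:102504833-102505958, top 11.6%). The region was also in the windows of Gm1564 and Ccdc43, and the nearest coding start was that of Gm1564, 19.6 kb away, so assignment to Fzd2 rests on the window alone. S4 held 1 further peak (271) 339 bp upstream of the Fzd2 start, and 1 (168) at the start of Gpatch8. The shared region is shown as the second-highest at Wnt genes and as one with no AAGTG or TGACA in the window.
Fzd2 at 39.7 kb, chr11:102505355-102505555: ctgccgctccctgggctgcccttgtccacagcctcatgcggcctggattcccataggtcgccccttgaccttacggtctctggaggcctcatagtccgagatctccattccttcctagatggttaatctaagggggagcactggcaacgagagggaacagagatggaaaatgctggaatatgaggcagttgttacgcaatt

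The remaining 11 receptor genes had no shared peak. Ror2, the paralogue of Ror1, had 3 S1 peaks (251, 177 and 144) and 2 S4 peaks (230 and 147), but no S1 peak overlapped an S4 peak. The closest pair was 1.88 kb apart and the next 3.91 kb apart, all in intron 1. Ror2 and Wnt7a were the 2 genes with peaks of both lists and no shared one. Single-library peaks at gene starts were found at Fzd1 (S1, 142, 55 bp downstream) and Fzd8 (S4, 268, 763 bp upstream). Fzd3, Fzd4, Fzd5, Fzd6, Fzd7, Fzd9, Fzd10 and Lrp5 had no peak of either list.

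**Figure D2:**
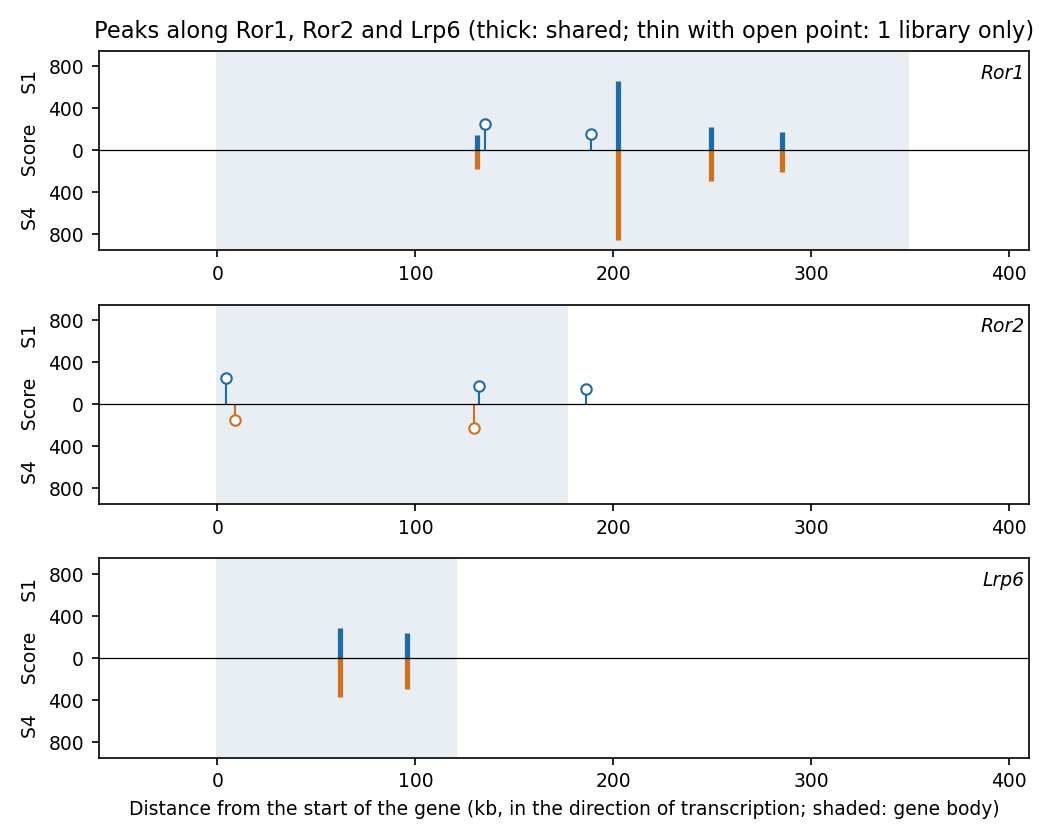
NKX2-5 peaks along Ror1, Ror2 and Lrp6, by distance from the gene start (kb, horizontal axis) and score (vertical axis, S1 upwards in blue and S4 downwards in orange), with the gene body shaded, shared peaks thick and peaks of 1 library thin with an open point. Ror1 shows 4 mirrored pairs with the tallest at 202 kb, Lrp6 shows 2, and Ror2 shows no pair, its nearest opposite peaks lying 1.88 kb apart.

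None of the antagonist genes picked by name had a shared peak, and none had a peak in S1, which allows a share of up to 36.9% (like length 26.0%). S4 peaks alone lay at 3 of them (37.5%, interval 8.52 to 75.5, like length 32.3%). Both intervals held the value for like-length genes. The 3 were Dkk3, a divergent member of the DKK family, with scores of 366 and 166, Sfrp1 with 229 and 152, and Dkk4 with 169 at the start of the neighbouring gene Vdac3. The Dkk3 peak of 366, in intron 3 and 9.88 kb downstream of the start (chr7:119292209-119293176), was the highest of the 24 single-library peaks at Wnt genes. The nearest S1 peak was 73.2 kb away. Its centre held GTGNTGACA, the GTG and TGACA pair with 1 base between them that resembles a joined NKX2-5 and MEIS1 site, on the minus strand at bases 89 to 97. None of the 8 shared regions held this pair in the same window. The sequence, 100 bp on each side of the peak midpoint, was chosen after its values were seen; capitals mark this pair and AAGTG at bases 42 to 46 (minus strand) and 51 to 55.
Dkk3, chr7:119292592-119292792: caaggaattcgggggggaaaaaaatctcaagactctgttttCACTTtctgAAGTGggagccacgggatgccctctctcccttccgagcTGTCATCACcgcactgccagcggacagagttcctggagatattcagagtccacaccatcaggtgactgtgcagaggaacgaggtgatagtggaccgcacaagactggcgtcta
Dkk1, Dkk2, Sfrp2, Sfrp4 and Sfrp5 had no peak of either list. These counts leave out Frzb, a secreted Frizzled-related antagonist that the name rule misses. It had a shared region scoring 1157 in S1 and 1299 in S4, and was the 1 gene of 13 other secreted modulators with one.

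**Figure D3:**
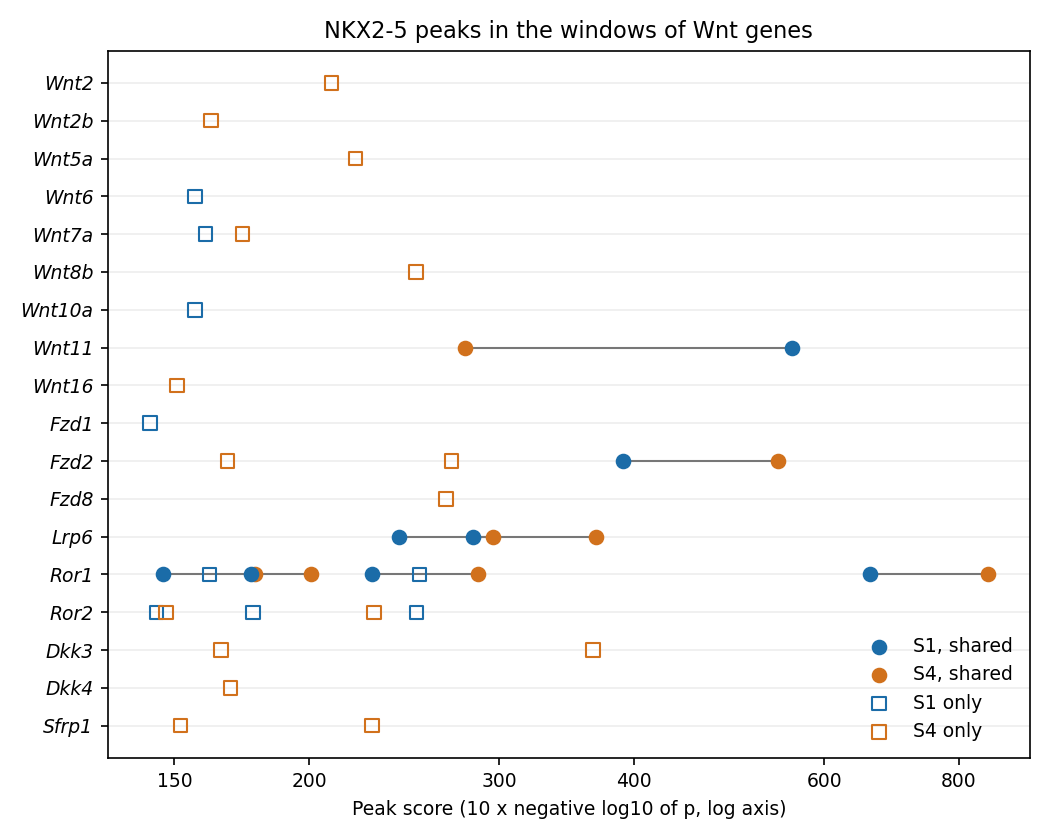
Scores (horizontal, log axis) of every NKX2-5 peak in the windows of the 18 Wnt genes with a peak of either list, with filled circles joined by a line for shared regions (S1 blue, S4 orange) and open squares for peaks of 1 library. Shared regions occur at 4 genes and reach 662 in S1 and 851 in S4, while no open square passes 366.

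Counted by library, 9 of 41 Wnt genes had an S1 peak (22.0%; 26.3% of all coding genes) and 15 had an S4 peak (36.6%; 32.0%). With 23 genes lacking any peak and 4 having a shared one, 14 had peaks but no shared one, of which Ror2 and Wnt7a had peaks of both libraries and the others of 1. The same counts over all coding genes are not given here, so whether these are usual is not known. Within the Wnt windows, 8 of 16 S1 peaks (50%) and 8 of 24 S4 peaks (33.3%) were shared. In the windows of all coding genes 56.8% of S1 peaks and 45.0% of S4 peaks were shared, and in the whole lists 58.9% and 47.0%. These differences were not tested. The medians of the single-library peaks were 161 in S1 (142 to 253) and 192 in S4 (147 to 366), near the 171 and 183 of such peaks over the whole lists. The 8 shared regions at Wnt genes, 4 of them in Ror1, had median scores of 263 in S1 and 291 in S4, where all 2546 shared regions had 280 and 315. The ratio of S4 to S1 had a median of 1.24 at Wnt genes and 1.12 over all shared regions. Differences in score between libraries cannot be told apart from differences in depth.

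Few Wnt genes had a shared peak in the gene or at its annotated start. Inside the gene body, 2 of 41 genes had a shared peak (4.88%; 4.99% of all coding genes). Within 1 kb of the outermost start of the gene, which leaves out the internal Lrp6 start, the counts were 0 of 41 shared (1.63% of all coding genes), 1 of 41 for S1 (3.56%) and 3 of 41 for S4 (4.80%). These counts are close to those shares, so a lack of binding at Wnt promoters beyond that of other genes was not detectable in a set of this size. By position, 5 of the 8 regions were intronic, 2 intergenic and 1 at a start, and over all shared regions 38.8% were intronic, 41.0% intergenic and 17.1% at a start. Ror1 alone held 4 of the 8 regions, all intronic.

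The choice of window left some genes just outside. Wnt7b had a shared region (142 in S1, 152 in S4) 53.1 kb from its body and Dkk3 had one (143 and 411) 67.1 kb away, while those of Fzd2 and Wnt11, at 36.02 kb and 16.8 kb from the body, were inside. By the rule of the 2 nearest genes within 1 Mb of a region, 9 of 41 Wnt genes (22.0%; 16.0% of all coding genes, 16.2% of like-length genes) flanked a shared region: Dkk3, Fzd1, Fzd2, Fzd7, Lrp6, Ror1, Wnt11, Wnt5a and Wnt7b. The interval for the Wnt genes was 10.6 to 37.6. Under the same rule the counts were 6 of 29 FGF genes (20.7%; like length 17.99%), 2 of 9 Notch genes (22.2%; like length 17.7%) and 17 of 41 BMP and TGF-beta genes (41.5%, 26.3 to 57.9; like length 18.03%), and the differences between families were not tested. Wnt5a had a shared region 378 kb upstream with 836 in S1 and 352 in S4, and a second 230 kb upstream with 345 and 369. For both regions the Wnt5a start was the nearest coding start, although both lay within introns of other genes. The median distance from a Wnt gene start to the nearest shared region was 300 kb (quartiles 187 to 463), against 342 kb (126 to 831) over all coding genes. It was 316 kb for ligands, 223 kb for receptors and 531 kb for antagonists, of which Sfrp4 was farthest at 1928 kb.

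**Figure D4:**
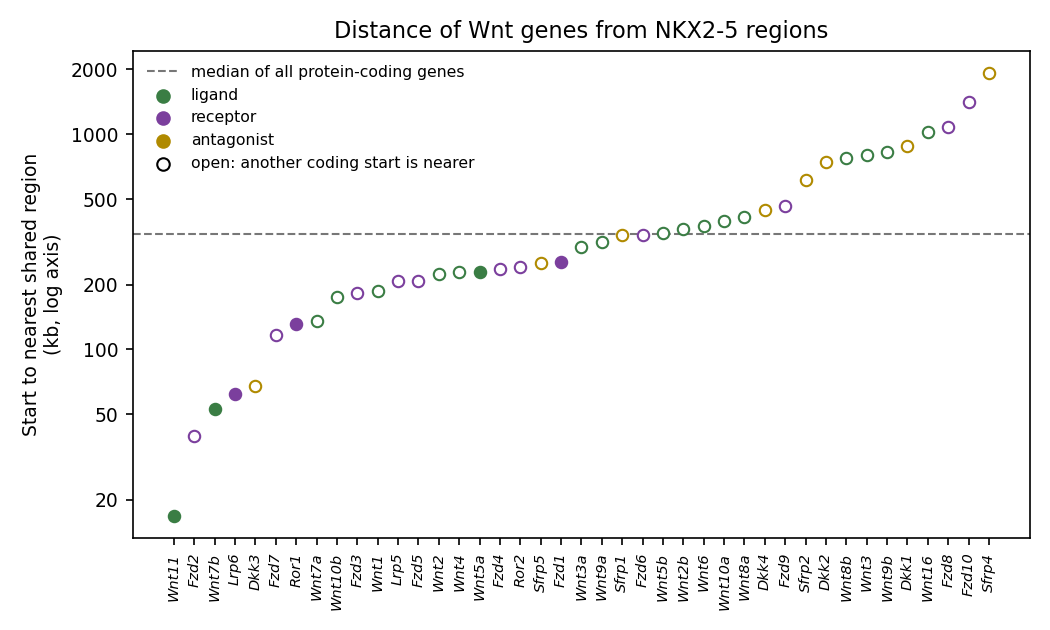
Distance from each of the 41 Wnt gene starts to the nearest shared NKX2-5 region (kb, log axis), sorted, coloured by role, with filled points where that start is the nearest coding start of the region and the median of all coding genes dashed. Wnt11 is nearest at 16.8 kb and Sfrp4 farthest at 1928 kb, and the dashed line stands at 342 kb.

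Core motifs were searched as exact letters on both strands, within 100 bp of the middle of each region. AAGTG was in 4 of the 8 Wnt regions (50%; 64.0% of all shared regions) and TGACA in 5 (62.5%; 64.5%). The longer TNAAGTG, which contains AAGTG, was in 1 (12.5%; 32.4%), and GTGNTGACA, which contains TGACA, in 0 (9.54%). The GATA core AGATAA (19.0%) and the T-box core AGGTGT (13.8%) were in none, and CTTTGA, a core bound by TCF/LEF factors, was in 2, both at Lrp6 (25%; 17.1%). With 8 regions the intervals are wide, for AAGTG 15.7 to 84.3, and 4 of the 8 regions lay in the single gene Ror1. A match is a run of letters and was not tested as a binding site.

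Other genes of the pathway, taken from a list of 59 of which 58 were matched in the annotation, had shared peaks at 11 (19.0%, near the 15.7% of all coding genes). The classes are small, and their counts were 0 of 2 genes for Wnt secretion, 1 of 13 for secreted modulators, 3 of 7 for other receptors, 4 of 23 for the beta-catenin branch and 3 of 13 for the planar polarity branch. The best-ranked regions were at Tle3 and Tle1, which code for Groucho-type corepressors that bind TCF/LEF factors. The Tle3 region lay 35.0 kb upstream and scored 3095 in S1 and 2559 in S4. The nearest transcript start to it was that of another coding gene, Gm10655, 34778 bp away. The region of Tle1 lay in an intron and scored 2020 and 1860. Frzb, which codes for a secreted Frizzled-related antagonist outside the name rule, followed with 1157 and 1299, 20.6 kb downstream of its start. Dvl2, a cytoplasmic transducer, had 444 and 656 at a region 38 bp from the start of Gabarap. Lgr4, a receptor for R-spondins, had 439 and 572 at a region outside the gene, 126 kb downstream of its start and 2369 bp from a start of Ccdc34. Each of the 3 best-ranked regions scored higher in both libraries than any region at the 41 Wnt genes. No shared peak lay in the windows of Ctnnb1 (beta-catenin), Axin2, Lef1, Tcf7, Tcf7l1 or Tcf7l2.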

How the data were processed

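Fixed hearts were homogenised and sonicated, and an NKX2-5 antibody was used to collect bound chromatin. Per the study's methods, the authors sequenced the libraries on a Genome Analyzer IIx, aligned reads to mm9 with BOWTIE and called peaks with MACS 1.4, and the submitters' processing notes also name CASAVA 1.4. The BOWTIE version, the settings and the control used by the caller are not given in the sources used here. The authors deposited a score for every peak, read from its values as the negative log10 p-value multiplied by 10. It was not scaled between the libraries. The deposited starts were counted from 0 and were raised by 1. The Input library was not analysed here. Read depth is unknown, so no error can be given for a score.

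Groups came from the labels. Genes were read from GENCODE M1 on NCBIM37. Pairs that shared a peak formed 1 region, and its score in each library was that of its highest peak. A region within 1 kb of any transcript start was a promoter. Genes of like length were taken from 10 length classes. Every Wnt gene is named; sequences are of the 6 best-ranked shared regions (by the worse of both ranks), less the one that overlaps an exon, and of the Dkk3 peak. For the other pathway genes the 5 best-ranked are named. The members and lists were chosen with earlier results of these data known. Alternatives were other overlaps, score minima, windows, length classes, motif windows and each library alone. The counting was tested on simulated data with planted shared peaks, all of which were recovered. The software was scipy 1.17.1, numpy 2.4.6, pysam 0.24.0 and matplotlib 3.10.9 under Python 3.11.15.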

Additional observations from a re-analysis of the deposited data

How the results depend on the processing

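Of 46 alternative values, 21 stayed within their interval or spread and 25 moved. The share of Wnt genes with a shared peak was 9.76% where both peaks had to overlap by 50% or had a score of at least 200, 4.88% in gene bodies or with 10 kb flanks, 14.6% with 100 kb flanks and 7.32% where the Wnt start had to be the nearest. For genes of like length these settings gave 14.9%, 10.3%, 5.11%, 8.20%, 25.6% and 6.81%. With each library alone the Wnt share was 22.0% to 36.6% and the like-length share 27.9% to 33.9%. The Wnt share passed the like-length share in 2 of 8 settings, nearest start and S4 alone, and also with the 2 nearest genes (22.0% against 16.2%), a setting chosen after seeing the data. The count of regions rose from 8 to 14 with 100 kb flanks, fell to 3 with nearest starts, and was 16 to 24 in single libraries. The median score at Wnt genes rose to 337 in S1 and 332 in S4 with the score minimum, was 235 in S1 with bodies, 10 kb or 100 kb flanks and 283 with nearest starts, and was 203 in S1 alone and 225 in S4 alone. With 25 bp on each side AAGTG and TGACA were each in 12.5% of Wnt regions (22.2% and 25.1% of all shared regions). With 250 bp they were in 87.5% and 100% of Wnt regions (86.4% and 84.6% of all shared regions). Apart from what each setting changes by construction, the cause was not tested.

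A set of 41 genes and 8 regions leaves wide intervals. Read depth was unknown, and a peak listed in 1 library and not in the other is no measure of absent binding, since the lists begin at a score of 140. Assignment by distance does not show which gene a region acts on.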

Other observations

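The single-library peaks at Wnt genes were read for the same motifs as the shared regions. AAGTG was in 10 of the 16 S4 peaks (62.5%, against 53.4% of all 2886 S4 peaks without a partner) and in 4 of the 8 S1 peaks (50%, against 56.6% of 1817). TGACA was in 5 of the 16 S4 peaks (31.3%, against 50.3%) and in 5 of the 8 S1 peaks (62.5%, against 50.6%). TNAAGTG was in 3 of the 16 S4 peaks (18.8%, against 23.0%) and in 0 of the 8 S1 peaks (against 25.6%), so it was not more frequent here. Of those 3, the S4 peak 33.2 kb upstream of Wnt16, a ligand gene, held TNAAGTG 3 times within 100 bp of its midpoint. That peak scored 151, low in the S4 list (top 88.9%). The S4 peak of 366 in Dkk3 was the 1 of these 16 S4 peaks with GTGNTGACA. That is 6.25%, against 4.57% of all S4 peaks without a partner. Of the 24 single-library peaks, 9 were within 1 kb of a transcript start, of which 4 lay at the start of Fzd1, Fzd2, Fzd8 or Wnt5a and the others at starts of neighbouring genes, 8 were intronic, 6 intergenic and 1 exonic. The places of all single-library peaks are not given here, so no excess or lack at starts can be read from these counts.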
